A study of Homo sapiens with 12 samples.

Results

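LINC genes are long noncoding RNA genes, most of them intergenic, that carry a provisional symbol made of LINC and a number. Such symbols are mostly given to transcripts that lie between protein-coding genes and have no established function. The genes described here were all those in the array annotation with such a symbol whose mean log2 signal reached at least 5.5 in at least 1 of 4 groups of arrays. Of 458 annotated LINC genes, 130 (28.4%) met this rule and 328 stayed below it in every group, while 10284 of all 14884 genes tested (69.1%) met the same rule. For the 29 LINC genes with more than 1 transcript cluster (a set of probes read as 1 transcript) the cluster with the highest mean over all arrays stood for the gene. The members were thus chosen by their measured group means on these arrays, so a gene that met it in 1 group alone had to differ between groups, and counts over the 130 genes are given as descriptions.

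Most long noncoding RNAs are transcribed by RNA polymerase II, and many are capped, spliced and polyadenylated like messenger RNAs. They are usually made at lower levels than messenger RNAs and in fewer cell types, and some act on neighbouring genes, as scaffolds for proteins or as decoys, while for most no role is known. BET proteins bind acetylated histones at enhancers and promoters and help polymerase to elongate, so their displacement by an inhibitor can change noncoding as well as coding transcripts.

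JQ1, a bromodomain inhibitor that takes the place of acetylated lysine on BET proteins, was given at 500 nM for 72 hours to MDA-MB-231 and HCC70 cells, both established human breast cancer lines of the triple-negative class. The vehicle groups of each line received DMSO at 0.1% for the same time. The 4 groups, MDA-MB-231 with JQ1, MDA-MB-231 with vehicle, HCC70 with JQ1 and HCC70 with vehicle, held 3 arrays each, with total RNA hybridised to Human Gene 2.0 ST arrays. Each line is 1 established line with no further genotype given, so a difference between the lines is a difference between 2 cell populations. Whether replicate arrays stem from separate cultures is not stated in the labels, so a p-value reflects no more than the spread among these samples, and the number of arrays limits the precision of every value.

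Array medians lay between 6.16 and 6.26 over the genes tested, and arrays of 1 group correlated at 0.989 to 0.995. The arrays numbered 3 of MDA-MB-231 JQ1, MDA-MB-231 vehicle and HCC70 JQ1 had a higher lower quartile and a lower upper quartile than the other 2 arrays of their group. Results are given with all arrays, and the calls that end without these 3 are named in the closing section. BRD2, a target of JQ1, was higher with JQ1 by 0.86 in MDA-MB-231 and 1.22 in HCC70 on the log2 scale, both called. The epithelial splicing factor ESRP1 stood at 10.77 with JQ1 and 11.08 with vehicle in HCC70 but at 4.56 under both treatments in MDA-MB-231, and the mesenchymal marker AXL at 5.87 and 5.70 in HCC70 and 12.58 and 12.55 in MDA-MB-231. Of 5 measured epithelial markers EPCAM, KRT19 and ESRP1 were called higher and KRT18 lower in HCC70 than in MDA-MB-231 under vehicle, and all 4 mesenchymal markers were lower. JQ1 also moved markers: EPCAM fell by 1.74 and FN1 by 1.40 in MDA-MB-231, FN1 by 3.12 and VIM by 1.72 in HCC70, and KRT8, KRT18 and KRT19 rose by 0.31 to 0.85 in both lines. The part of these marker changes in the LINC results was not tested. In all 4 groups the oestrogen receptor ESR1 lay between 4.89 and 5.09, and the endothelial marker PECAM1 between 4.41 and 4.54. In bulk RNA, fewer cells that make a transcript and less transcript per cell cannot be told apart.

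The 130 LINC genes were mostly dim. Their means over the 12 arrays had a median of 6.01 on the log2 scale, against 7.08 over all genes that met the same rule. Over all 458 LINC genes the median was 4.59, and over all genes tested it was 6.25. Of the 130, 31 averaged at least 7 and 6 averaged at least 10. The brightest was LINC00987 at 11.98, followed by LINC01347 at 11.60, LINC01000 at 11.47, LINC00999 at 11.07, LINC01061 at 10.94 and LINC01002 at 10.20. In these units a difference of 1 is a doubling of signal. Levels of different genes come from different probes, so this order describes signal and not transcript number. Just inside the rule lay LINC00312 and LINC00885 at 5.51 and LINC00336 at 5.53 in their highest group, and just outside it LINC01548, LINC02184 and LINC00304 at 5.48. Of the 130 genes, 80 met the rule in all 4 groups and 15 in 1 group alone.

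**Figure D1:**
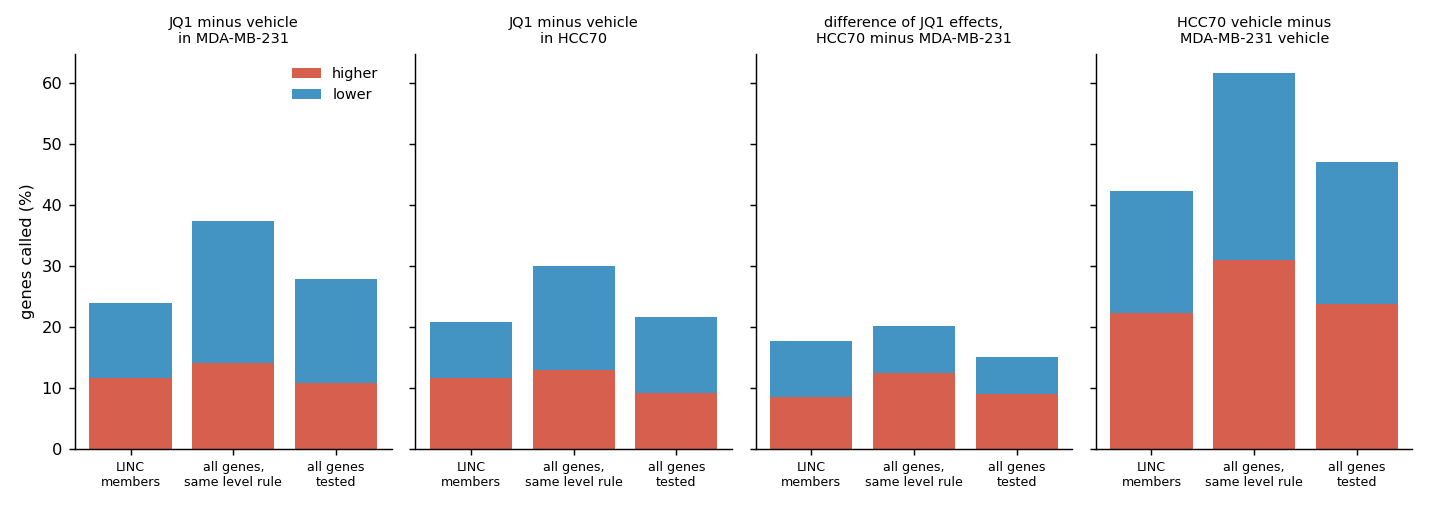
Percent of genes called (limma adjusted p under 0.05) as higher or lower in each of 4 comparisons, one panel each, for the 130 LINC genes, for all genes that meet the same level rule and for all genes tested. In MDA-MB-231 the LINC share is 23.8%, below the 37.4% of genes that meet the same rule.

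The first question was which LINC genes changed with JQ1 in each line. In MDA-MB-231 JQ1 changed 31 of the 130 (23.8%), 15 up and 16 down, where 27.8% of all genes tested and 37.4% of genes meeting the same level rule were called. Of all genes 10.8% were called higher and 17.0% lower, and of genes meeting the rule 14.1% and 23.3%. A gene was called where limma's p, adjusted by Benjamini-Hochberg over all 14884 genes, was under 0.05. The median log2 change over the 130 was 0.0707, against 0.0173 over all genes. In HCC70 27 of 130 (20.8%) changed, 15 up and 12 down, where 21.7% of all genes tested and 30.0% of genes meeting the rule were called, with medians of 0.0123 and 0.00567. Higher calls made up 9.18% and lower calls 12.5% of all genes there, and 12.9% and 17.1% of genes meeting the rule. The LINC shares were thus no higher than the background in either line. Called changes of at least 1 on the log2 scale numbered 9 in MDA-MB-231 (6.92%, against 4.35% of all genes) and 6 in HCC70 (4.62%, against 2.55%). Several of these genes met the level rule in 1 group alone, so a difference between groups was built into their choice. Among the 110 LINC genes with a mean over all 12 arrays of at least 5.5, the shares were 5.45% and 2.73%. Of the 130 genes, 81 were called in neither line. Over all 14884 genes 4139 were called in MDA-MB-231 and 3229 in HCC70. Of these 1634 were called in both lines in the same direction and 168 in opposite directions. The 81 is not read as a trait of LINC genes.

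**Figure D2:**
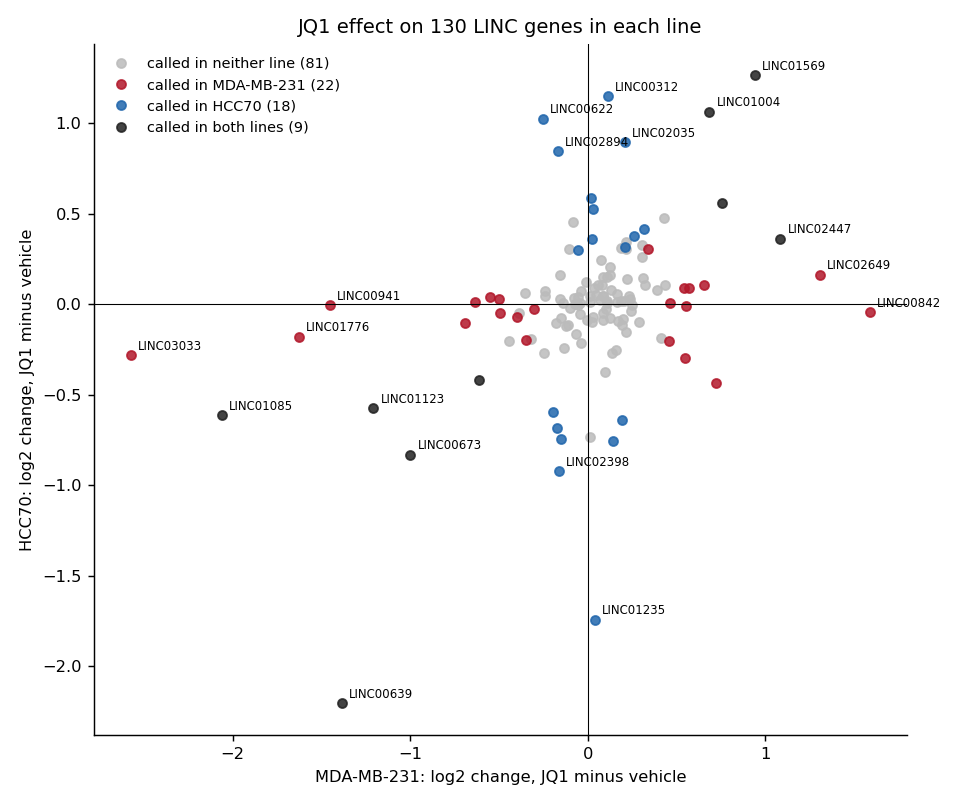
Log2 change with JQ1 (JQ1 minus vehicle) of the 130 LINC genes in MDA-MB-231 on the horizontal axis and in HCC70 on the vertical axis, each point 1 gene, coloured by the line in which it was called. LINC03033 and LINC01085 lie far to the left, LINC00639 and LINC01235 far down, and LINC01569 and LINC01004 at the upper right.

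Both lines called 9 LINC genes in the same direction and 0 in opposite directions. LINC01569, LINC01004, LINC00310 and LINC02447 rose in both, and LINC00673, LINC01085, LINC01123, LINC00639 and LINC00623 fell in both. These 9 were 29% of the MDA-MB-231 calls and 33.3% of the HCC70 calls. Over all genes 1634 were called in the same direction, or 39.5% and 50.6% of the calls in those lines, and 168 in opposite directions.

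Promoters of 4 of these 9 genes are shown because they span the range of base composition among genes that moved the same way in both lines: LINC01569 and LINC00310 rose and LINC01123 and LINC01085 fell. Each is the 300 bases from 250 before to 50 after the annotated start, from RefSeq on GRCh38.p14, written along the transcribed strand. Capitals mark every match, on either strand, to any of 4 motifs, which cannot contain one another. These were the E-box CACGTG, bound by MYC and its partners, the AP-1 motif with the letters TGANTCA, the TATA box in the form TATAAA and the CCAAT box.
LINC01569 (chr16:4253740-4254039, minus strand): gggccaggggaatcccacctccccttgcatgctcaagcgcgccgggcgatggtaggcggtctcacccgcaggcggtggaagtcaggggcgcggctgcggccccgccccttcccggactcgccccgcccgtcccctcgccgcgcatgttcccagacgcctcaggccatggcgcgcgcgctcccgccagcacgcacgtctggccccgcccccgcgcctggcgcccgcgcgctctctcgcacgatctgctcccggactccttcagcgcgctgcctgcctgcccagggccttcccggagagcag
LINC00310 (chr21:34180427-34180726, plus strand): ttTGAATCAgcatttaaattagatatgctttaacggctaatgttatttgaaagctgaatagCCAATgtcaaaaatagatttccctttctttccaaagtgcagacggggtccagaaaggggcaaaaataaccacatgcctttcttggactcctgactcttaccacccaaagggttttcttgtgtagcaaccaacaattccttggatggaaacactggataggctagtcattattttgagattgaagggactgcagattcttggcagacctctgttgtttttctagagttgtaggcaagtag
LINC01123 (chr2:109986730-109987029, plus strand): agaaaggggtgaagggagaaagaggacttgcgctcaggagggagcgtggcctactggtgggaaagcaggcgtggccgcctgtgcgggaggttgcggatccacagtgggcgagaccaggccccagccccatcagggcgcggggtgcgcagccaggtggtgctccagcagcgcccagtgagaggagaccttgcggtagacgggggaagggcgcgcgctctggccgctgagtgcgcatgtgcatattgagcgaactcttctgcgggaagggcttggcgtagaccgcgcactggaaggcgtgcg
LINC01085 (chr4:14111718-14112017, plus strand): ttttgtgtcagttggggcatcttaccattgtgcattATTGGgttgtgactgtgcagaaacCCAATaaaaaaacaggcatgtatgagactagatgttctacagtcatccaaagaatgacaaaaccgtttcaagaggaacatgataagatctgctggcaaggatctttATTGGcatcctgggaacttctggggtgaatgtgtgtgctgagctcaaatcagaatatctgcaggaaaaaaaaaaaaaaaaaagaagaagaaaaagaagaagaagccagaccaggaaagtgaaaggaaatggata

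The LINC01569 window held 76.0% G and C and 39 CG pairs, and the LINC01123 window 67% and 25 pairs, with no match to any of the 4 motifs. The LINC00310 window held 40.0% G and C and 2 CG pairs, with 1 AP-1 match and a CCAAT match, and the LINC01085 window 39.0% and 1 CG pair, with CCAAT matches. The windows were picked to span base composition, so high and low G and C content among both rises and falls follows from that choice. The other 2 unique windows, of LINC02447 and LINC00673, held 68.0% and 63.3% G and C, with a CCAAT match in LINC02447 alone. No window is given for LINC01004, LINC00639 and LINC00623. Over 106 promoters of 97 of the LINC genes the median G and C content was 57.8%, against 58.7% over all 35116 promoters. CACGTG occurred in 5.66% of LINC promoters and 7.26% of all, TGANTCA in 10.4% and 7.71%, TATAAA in 13.2% and 11.5%, and CCAAT in 40.6% and 34.6%. A match describes the letters and says nothing of binding.

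LINC01569 had the largest rise in HCC70. Its log2 signal was 5.83, 6.13 and 5.63 on the MDA-MB-231 JQ1 arrays, against 5.16, 4.78 and 4.81 on the vehicle arrays. In HCC70 it was 7.24, 6.97 and 6.91 with JQ1, against 5.85, 5.69 and 5.79 with vehicle. No JQ1 array overlapped the vehicle arrays in either line, and HCC70 stood higher under each treatment. The rise was 1.92-fold in MDA-MB-231 (log2 0.94 ± 0.14, SE of the limma coefficient, n = 3 arrays per group, limma adjusted p = 0.00027) and 2.40-fold in HCC70 (log2 1.26 ± 0.14, limma adjusted p = 4.0e-05).

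LINC01004 read 7.77, 7.78 and 7.42 with JQ1, against 6.88, 7.18 and 6.85 with vehicle, in MDA-MB-231. HCC70 arrays read 8.25, 8.0 and 7.78 with JQ1, against 7.03, 7.11 and 6.70 with vehicle. The lines had nearly equal vehicle levels, and JQ1 arrays lay above all vehicle arrays in each. The rise was 1.61-fold in MDA-MB-231 (log2 0.68 ± 0.15, limma adjusted p = 0.0048) and 2.09-fold in HCC70 (log2 1.06 ± 0.15, limma adjusted p = 0.00029).

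LINC00310 was at 7.12, 6.79 and 6.67 with JQ1 in MDA-MB-231, against 6.28, 6.09 and 5.93 with vehicle, a rise of 0.76 ± 0.14 (limma adjusted p = 0.0015). In HCC70 it was at 6.04, 6.12 and 5.66 with JQ1, against 5.45, 5.35 and 5.34 with vehicle, a rise of 0.56 ± 0.14 (limma adjusted p = 0.014). JQ1 and vehicle arrays did not overlap in either line, but the HCC70 call was lost without JQ1 replicate 1 or without JQ1 replicate 2 (adjusted p = 0.052 to 0.067).

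LINC02447 read 5.83, 6.0 and 5.78 with JQ1 in MDA-MB-231, against 4.72, 4.91 and 4.72 with vehicle. This gene met the level rule with MDA-MB-231 JQ1 arrays alone, so a difference from the other groups was built into its choice. In HCC70 it read 4.89, 4.59 and 5.01 with JQ1, against 4.37, 4.48 and 4.55 with vehicle. Vehicle means in both lines lay below 4.80, the lower quartile of genes over all arrays, so each rise is read as a lower bound. It was at least 2.12-fold in MDA-MB-231 (log2 1.08 ± 0.12, limma adjusted p = 1.4e-05) and at least 1.29-fold in HCC70 (log2 0.36 ± 0.12, limma adjusted p = 0.041). The HCC70 call was lost in 7 of the fits without 1 array, those without MDA-MB-231 replicate 1 of either treatment, HCC70 JQ1 replicate 1 or 3, or any 1 HCC70 vehicle array, with adjusted p up to 0.16. It was also lost with the 2 HCC70 groups alone, with a variance trend, with quantile normalization, with all transcript clusters in the adjustment and with array weights, which gave a rise of 0.19 (limma adjusted p = 0.17).

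**Figure D3:**
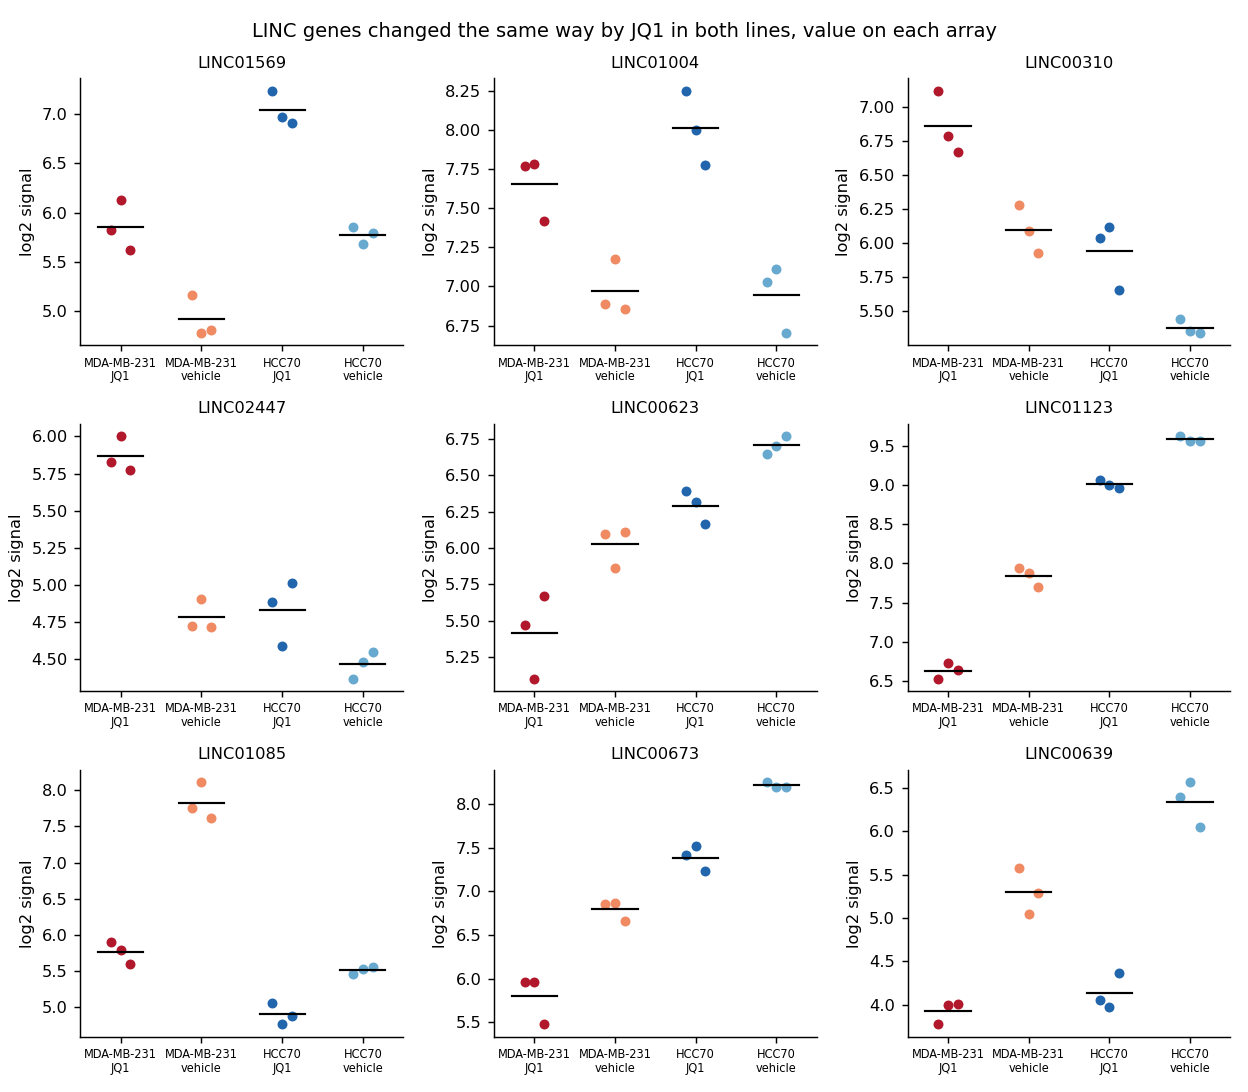
Log2 signal on each array of the 9 LINC genes called in the same direction in both lines, one panel per gene with its own vertical scale, groups along the horizontal axis with JQ1 left of vehicle for each line. Points are arrays and bars are means of 3. In each panel and line the JQ1 points lie wholly on one side of the vehicle points.

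LINC00639 had the largest fall in HCC70. It met the level rule with HCC70 vehicle arrays alone, so a difference from the other groups was built into its choice. It stood at 3.77, 3.99 and 4.0 with JQ1, against 5.58, 5.04 and 5.29 with vehicle, in MDA-MB-231, and at 4.06, 3.98 and 4.37 with JQ1, against 6.40, 6.57 and 6.05 with vehicle, in HCC70. All 6 JQ1 arrays lay below the lower quartile of genes, so both falls are lower bounds, at least 2.61-fold in MDA-MB-231 (log2 -1.38 ± 0.16, limma adjusted p = 3.3e-05) and at least 4.61-fold in HCC70 (log2 -2.20 ± 0.16, limma adjusted p = 1.2e-06).

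LINC01085 read 5.91, 5.79 and 5.60 with JQ1 and 7.75, 8.11 and 7.62 with vehicle in MDA-MB-231. In HCC70 it read 5.07, 4.76 and 4.88 with JQ1 and 5.46, 5.54 and 5.55 with vehicle. No arrays of a line overlapped between treatments, and the fall was 1.53-fold in HCC70 (log2 -0.61 ± 0.13, limma adjusted p = 0.0041) and 4.17-fold in MDA-MB-231 (log2 -2.06 ± 0.13, limma adjusted p = 1.4e-07), where the vehicle level was higher.

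LINC01123, reported in lung cancer cells as a transcript activated by MYC, was at 6.53, 6.73 and 6.65 with JQ1, against 7.95, 7.88 and 7.70 with vehicle, in MDA-MB-231. In HCC70 it was at 9.06, 9.0 and 8.96 with JQ1, against 9.62, 9.56 and 9.56 with vehicle. The groups were well apart, and the fall was 2.31-fold in MDA-MB-231 (log2 -1.21 ± 0.088, limma adjusted p = 5.0e-07) and 1.49-fold in HCC70 (log2 -0.57 ± 0.088, limma adjusted p = 0.00044). MYC itself fell by 0.41 ± 0.10 in MDA-MB-231 and 0.92 ± 0.10 in HCC70. A part of MYC in the fall of LINC01123 was not tested.

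LINC00673, which lies beside the transcription factor gene SOX9 and is known as a scaffold that promotes breakdown of the phosphatase PTPN11 in pancreatic cells, read 5.96, 5.96 and 5.47 with JQ1, against 6.86, 6.87 and 6.66 with vehicle, in MDA-MB-231. HCC70 arrays read 7.41, 7.52 and 7.23 with JQ1, against 8.26, 8.20 and 8.20 with vehicle. It fell 2.00-fold in MDA-MB-231 (log2 -1.0 ± 0.13, limma adjusted p = 8.0e-05) and 1.78-fold in HCC70 (log2 -0.83 ± 0.13, limma adjusted p = 0.0005), with no overlap of arrays.

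LINC00623 had 5.47, 5.10 and 5.67 with JQ1, against 6.10, 5.86 and 6.11 with vehicle, in MDA-MB-231, a fall of 0.61 ± 0.13 (limma adjusted p = 0.0037). In HCC70 it had 6.39, 6.31 and 6.16 with JQ1, against 6.65, 6.70 and 6.77 with vehicle, a fall of 0.42 ± 0.13 (limma adjusted p = 0.04). Arrays did not overlap, but the HCC70 call was lost in each of the 6 fits that left out 1 array of that line (limma adjusted p = 0.051 to 0.13).

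The test of the difference between the lines called 23 of the 130 LINC genes (17.7%), where 15.0% of all genes tested and 20.2% of genes meeting the level rule were called. The difference is the JQ1 change in HCC70 minus that in MDA-MB-231, and it was positive for 11 and negative for 12. Of all genes 9.02% had a called positive difference and 5.95% a negative one, and of genes meeting the rule 12.4% and 7.77%. LINC03033 had the most positive one. Its signal in HCC70 was 5.69, 5.57 and 5.54 with JQ1, against 5.68, 5.82 and 6.14 with vehicle, which overlapped and did not pass (log2 -0.28 ± 0.12, limma adjusted p = 0.14). In MDA-MB-231 it was 7.53, 7.28 and 7.16 with JQ1, against 9.91, 9.94 and 9.83 with vehicle, a 5.95-fold fall (log2 -2.57 ± 0.12, limma adjusted p = 1.7e-08) and the largest among the 130 in either line. The difference of the changes was 2.29 ± 0.18 (limma adjusted p = 4.2e-06).

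LINC01776 and LINC00941 also fell in MDA-MB-231 with a difference between the lines. Both met the level rule with MDA-MB-231 vehicle arrays alone, so a difference from the other groups was built into their choice. LINC01776 read 4.63, 5.06 and 4.92 with JQ1, against 5.0, 5.12 and 5.03 with vehicle, in HCC70, where the arrays overlapped. In MDA-MB-231 it read 5.20, 5.66 and 5.05 with JQ1, against 7.10, 7.02 and 6.67 with vehicle, a 3.09-fold fall (log2 -1.63 ± 0.16, limma adjusted p = 8.6e-06). LINC00941, studied for roles in the invasion of several carcinomas, read 3.98, 4.14 and 4.57 with JQ1, against 4.72, 4.02 and 3.97 with vehicle, in HCC70. The gene lay below the lower quartile of genes there, so a fall may be understated. In MDA-MB-231 it read 5.61, 5.54 and 5.11 with JQ1, against 6.92, 6.85 and 6.84 with vehicle, a 2.74-fold fall (log2 -1.45 ± 0.20, limma adjusted p = 0.00015). For both genes the difference of the changes was 1.45 (limma adjusted p = 0.00099 for LINC01776 and 0.0045 for LINC00941), and for LINC01085, described above, it was 1.45 ± 0.18 (limma adjusted p = 0.00017).

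Rises that differed between the lines were led by LINC00842 and LINC02649. LINC00842 was at 3.92, 4.55 and 4.77 with JQ1, against 4.29, 4.31 and 4.77 with vehicle, in HCC70, with both means below the lower quartile of genes. In MDA-MB-231 it was at 8.48, 8.45 and 8.44 with JQ1, against 6.91, 6.71 and 6.99 with vehicle, a 3.01-fold rise (log2 1.59 ± 0.19, limma adjusted p = 3.7e-05). The difference of its changes was -1.63 ± 0.27 (limma adjusted p = 0.0012).

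LINC02649 read 6.01, 5.96 and 5.83 with JQ1, against 5.64, 5.94 and 5.73 with vehicle, in HCC70, which overlapped (log2 0.16 ± 0.099, limma adjusted p = 0.32). In MDA-MB-231 it read 7.27, 7.27 and 7.17 with JQ1, against 5.81, 6.04 and 5.92 with vehicle, a 2.48-fold rise (log2 1.31 ± 0.099, limma adjusted p = 6.7e-07). Here the gene lay above the lower quartile of genes in both lines with like vehicle levels, and the difference of the changes was -1.15 ± 0.14 (limma adjusted p = 0.00013). LINC00862 differed by -0.44 ± 0.17 with JQ1 in HCC70, which did not pass (limma adjusted p = 0.093), and rose by 0.72 ± 0.17 in MDA-MB-231, and the difference of -1.16 ± 0.24 passed (limma adjusted p = 0.0057).

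In the other direction, LINC01235 changed in HCC70, where the vehicle arrays alone met the level rule for it. Its log2 signal there was 5.23, 5.20 and 5.62 with JQ1, against 7.18, 6.78 and 7.30 with vehicle, a 3.35-fold fall (log2 -1.74 ± 0.17, limma adjusted p = 1.6e-05). MDA-MB-231 arrays read 5.16, 4.95 and 5.48 with JQ1, against 5.02, 5.05 and 5.38 with vehicle. The HCC70 arrays with JQ1, at 5.20 to 5.62, overlapped the MDA-MB-231 arrays, at 4.95 to 5.48, and the difference of the changes was -1.78 ± 0.25 (limma adjusted p = 0.00035).

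LINC00312, LINC00622 and LINC02894 rose in HCC70 with a difference between the lines. LINC00312, studied in nasopharyngeal carcinoma, was at 5.40, 5.69 and 5.45 with JQ1, against 4.24, 4.34 and 4.51 with vehicle, at least 2.22-fold higher (log2 1.15 ± 0.16, limma adjusted p = 0.00021), and the mean of its clusters gave a smaller rise of 0.52 that was still called. LINC00622 was at 6.21, 6.03 and 5.66 with JQ1, against 5.38, 4.83 and 4.62 with vehicle, 2.03-fold higher (log2 1.02 ± 0.21, limma adjusted p = 0.0038). LINC02894 was at 7.25, 7.19 and 7.09 with JQ1, against 6.04, 6.44 and 6.51 with vehicle, 1.80-fold higher (log2 0.84 ± 0.13, limma adjusted p = 0.00056). None of the 3 overlapped between treatments in HCC70, and in MDA-MB-231 their means lay between 4.03 and 4.59 under both treatments, below the lower quartile of genes. LINC00312 and LINC00622 met the level rule with HCC70 JQ1 arrays alone, so that a difference from the other groups was built into the choice. So did LINC00639, LINC01235, LINC00942 and LINC00885 with HCC70 vehicle arrays, LINC00941, LINC01776 and LINC01546 with MDA-MB-231 vehicle arrays and LINC02447 and LINC00656 with MDA-MB-231 JQ1 arrays.

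Of the other calls in MDA-MB-231, the falls ranged from -0.69 for LINC03027 to -0.30 for LINC01278 and included LINC00674 (-0.63), LINC01546 (-0.55), the bright LINC01002 (-0.50), LINC01126 (-0.49), LINC00997 (-0.40) and LINC02210 (-0.35). The rises ranged from 0.34 for LINC01128 to 0.65 for LINC00663 and included LINC00173 (0.57), LINC00536 (0.56), LINC00174 (0.55), LINC00863 (0.54), LINC00656 (0.46) and LINC01341 (0.46). JQ1 and vehicle arrays overlapped for LINC00536 and LINC00863 among the genes called. Calls of LINC00173, LINC00174, LINC00536, LINC00863, LINC01002, LINC01128, LINC01278, LINC01341 and LINC02210 were each lost without at least 1 single array, with adjusted p of 0.051 to 0.17. For LINC01002 these arrays were vehicle replicates 2 and 3 (adjusted p = 0.051 to 0.058), and for LINC02210 JQ1 replicates 2 and 3 and vehicle replicate 1 (0.056 to 0.065). LINC01278 lost its call without JQ1 replicate 3 or vehicle replicate 1 or 2, LINC01341 without JQ1 replicate 1 or 3 or vehicle replicate 3, LINC01128 without JQ1 replicate 1 or 2 or vehicle replicate 1 or 3, and LINC00536 without JQ1 replicate 1 or 3 or vehicle replicate 1 or 2. LINC00173, LINC00174 and LINC00863 each lost it in 7 of the fits without 1 array, among them arrays of HCC70.

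Of the other calls in HCC70, LINC02398 fell by 0.92 ± 0.16 (limma adjusted p = 0.0012), LINC00942 by 0.76, LINC00630 by 0.74, LINC00963, studied in prostate cancer, by 0.69, LINC00920 by 0.64 and LINC00885 by 0.59. LINC02035 rose by 0.89 ± 0.17 (limma adjusted p = 0.0019), LINC00472, of which higher levels in breast tumours have been linked with a better outcome, by 0.59 ± 0.16 (limma adjusted p = 0.018), LINC00707 by 0.53, LINC00205 by 0.41, LINC00641 by 0.38, LINC00857 by 0.36, LINC00467 by 0.32 and LINC00852 by 0.30. Calls of LINC00205, LINC00467, LINC00472, LINC00641, LINC00707, LINC00852 and LINC00857 were each lost without at least 1 single array, with adjusted p of 0.050 to 0.17. For LINC00472 these were JQ1 replicate 1 and vehicle replicate 1 (0.078 to 0.086), and for LINC00857 vehicle replicate 1 (0.055). LINC00467 and LINC00707 lost their calls without JQ1 replicate 1 or 2 or vehicle replicate 1 or 3, LINC00641 without any HCC70 array but JQ1 replicate 3, LINC00205 without each of the 6 HCC70 arrays, and LINC00852 without each of these and without replicate 2 of either MDA-MB-231 group.

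The last comparison set the lines against each other under vehicle. HCC70 and MDA-MB-231 differed in 55 of the 130 LINC genes (42.3%), 29 higher and 26 lower in HCC70, where 47.0% of all genes tested and 61.7% of genes meeting the level rule were called. Higher calls made up 23.8% of all genes and lower calls 23.2%, and 30.9% and 30.8% of genes meeting the rule. A level rule over 4 groups favours genes that are high in 1 line, and 10 of the 130 met it in both HCC70 groups alone and 4 in both MDA-MB-231 groups alone. Called differences of at least 1 on the log2 scale numbered 22 (16.9%, against 14.8% of all genes).

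LINC01133, studied in breast and colorectal cancer, had the largest difference. It stood at 9.73, 9.94 and 9.78 in HCC70 with vehicle, against 4.75, 4.46 and 4.32 in MDA-MB-231 with vehicle, at least 39.6-fold higher in HCC70 (log2 5.31 ± 0.12, limma adjusted p = 4.6e-12). With JQ1 the arrays read 9.72, 9.69 and 9.73 in HCC70 and 4.35, 4.12 and 4.53 in MDA-MB-231, and neither line was called for JQ1. LINC01133 thus parted the lines under both treatments.

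LINC01106 read 9.95, 9.95 and 10.01 in HCC70, against 7.51, 7.67 and 7.43 in MDA-MB-231, 5.41-fold higher in HCC70 (log2 2.44 ± 0.15, limma adjusted p = 3.2e-08). Others higher in HCC70 were LINC02398 (at least 5.15-fold), LINC02894 (at least 4.39-fold), LINC00920 (at least 4.03-fold), LINC01235 (3.82-fold), LINC01123 (3.33-fold), LINC00673 (2.68-fold), LINC00886 (2.62-fold) and the bright LINC01002 (2.22-fold). The bounds apply where the MDA-MB-231 mean lay below the lower quartile of genes.

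LINC03033 was lowest in HCC70 relative to MDA-MB-231, at 5.68, 5.82 and 6.14, against 9.91, 9.94 and 9.83, 16.1-fold lower (log2 -4.01 ± 0.12, limma adjusted p = 5.4e-11). LINC00472 followed at 5.0, 5.34 and 5.5 in HCC70, against 8.69, 9.07 and 8.82 in MDA-MB-231, 12-fold lower (log2 -3.58 ± 0.16, limma adjusted p = 1.2e-09). Also lower in HCC70 were LINC00941 (at least 6.22-fold), LINC00842 (at least 5.32-fold), LINC01085 (4.96-fold), LINC01116 (at least 4.46-fold), LINC00630 (3.71-fold), LINC01776 (3.67-fold), LINC00674 (2.77-fold) and LINC01546 (at least 2.29-fold). The 20 genes named for this comparison were taken from called genes whose arrays did not overlap between the lines, so that trait was part of the choice.

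**Figure D4:**
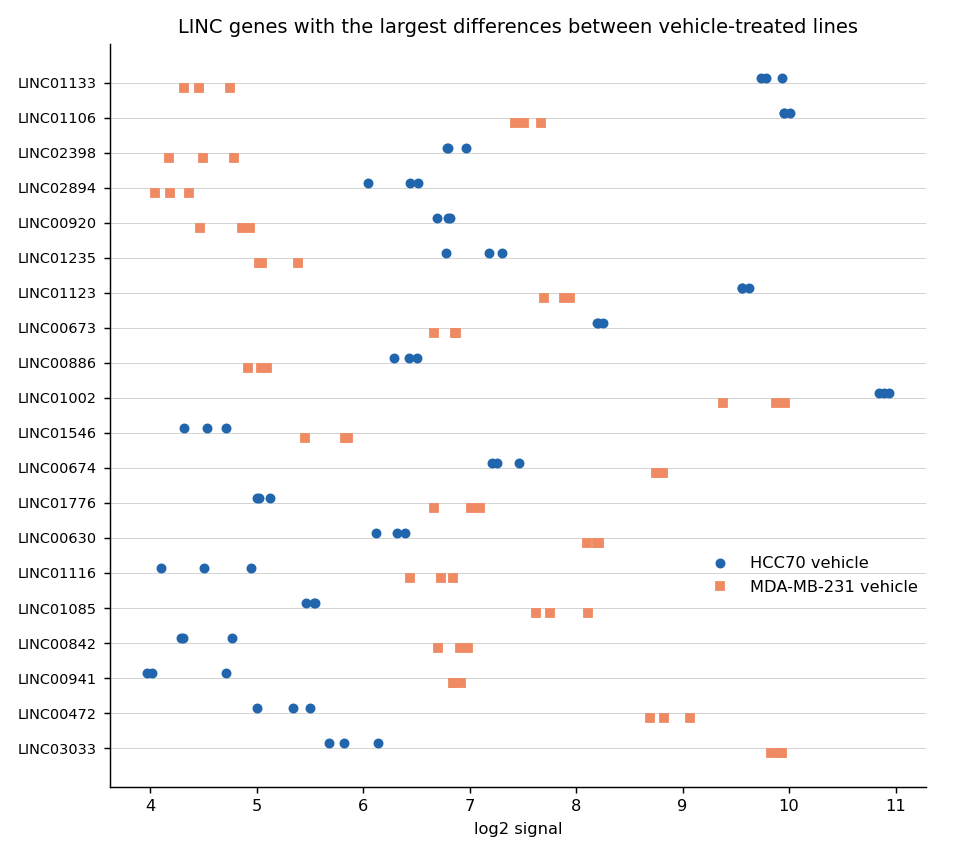
Log2 signal of 20 LINC genes on the vehicle arrays of HCC70 (circles) and MDA-MB-231 (squares), 3 arrays each, one gene per line, ordered from the highest to the lowest difference between the lines. LINC01133 stands alone at the top with a difference of 5.31, and LINC03033 at the bottom with -4.01.

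The brightest LINC genes differed little with JQ1. LINC00987, at 11.42 to 12.39 on all 12 arrays, differed by -0.01 ± 0.13 with JQ1 in MDA-MB-231 and 0.12 ± 0.13 in HCC70. LINC01347, LINC01000, LINC00999 and LINC01061 differed by -0.21 to 0.03 in either line, and none was called, although LINC00999 was called in HCC70 under 5 alternatives named in the closing section. LINC01002 was the exception, called lower in MDA-MB-231. Among LINC genes known from cancer studies, LINC00665, which encodes a small protein in breast cancer cells, differed by 0.13 and 0.08 in MDA-MB-231 and HCC70, LINC00339 by -0.13 and -0.24, LINC00265 by 0.24 and 0.03 and LINC00324 by 0.44 and 0.11, and none of these passed. LINC00324 was called in MDA-MB-231 with array medians centred (limma adjusted p = 0.036) and without MDA-MB-231 vehicle replicate 2 (0.0040), and LINC00665 there with quantile normalization (0.018). All these values are of the cluster kept for each gene. Dimmer clusters of LINC01061 were called higher in MDA-MB-231, and a dimmer cluster of LINC00265 lower in HCC70, as described under the other observations. LINC00511 and LINC00520 stayed below the level rule, with 5.02 and 3.94 in their highest group.

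Neighbouring protein-coding genes were taken from the gene order of the RefSeq annotation of GRCh38.p14, in which all 130 LINC genes were placed. Of these, 17 overlapped a protein-coding gene and 103 had a measured neighbour. Of 36 neighbours of 24 LINC genes called in MDA-MB-231, 15 (41.7%) were called, 8 in the direction of the LINC gene and 7 in the other. Beside LINC genes not called, 38 of 113 (33.6%) were called. In HCC70 6 of 30 neighbours (20%) were called, 3 in each direction, and 39 of 119 (32.8%) beside LINC genes not called. Between the lines 37 of 60 neighbours (61.7%) were called, 26 in the direction of the LINC gene and 11 in the other, and 48 of 89 (53.9%) beside LINC genes not called. Pairs share arrays and no test was made of these counts.

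Single pairs went both ways. TFAP4, a helix-loop-helix transcription factor gene beside LINC01569, fell in both lines (log2 -0.74 ± 0.11 in MDA-MB-231 and -0.91 ± 0.11 in HCC70) while LINC01569 rose. ANXA8L1, an annexin gene beside LINC00842, fell by 2.11 ± 0.13 in MDA-MB-231, where LINC00842 rose, and the neighbour on its other side, the receptor gene NPY4R, rose by 0.65 ± 0.19. ANXA8L1 has a near-identical copy, so its probes may also read that copy. AVL9 and KBTBD2, on the sides of LINC00997, fell by 0.40 and 0.42 with LINC00997 itself at -0.40 in MDA-MB-231. TRAF5, a signalling adaptor gene, fell by 1.57 ± 0.12 and 1.44 ± 0.12 in the lines, and LINC00467 beside it rose in HCC70. SOX9, beside LINC00673, differed by -0.13 ± 0.076 and -0.18 ± 0.076 and was not called in either line. Between the lines ESRP1 stood 6.52 higher in HCC70 beside LINC02894, which was also higher there, and OGFRL1 2.19 lower beside LINC00472 (log2 -2.19 ± 0.081).

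**Figure D5:**
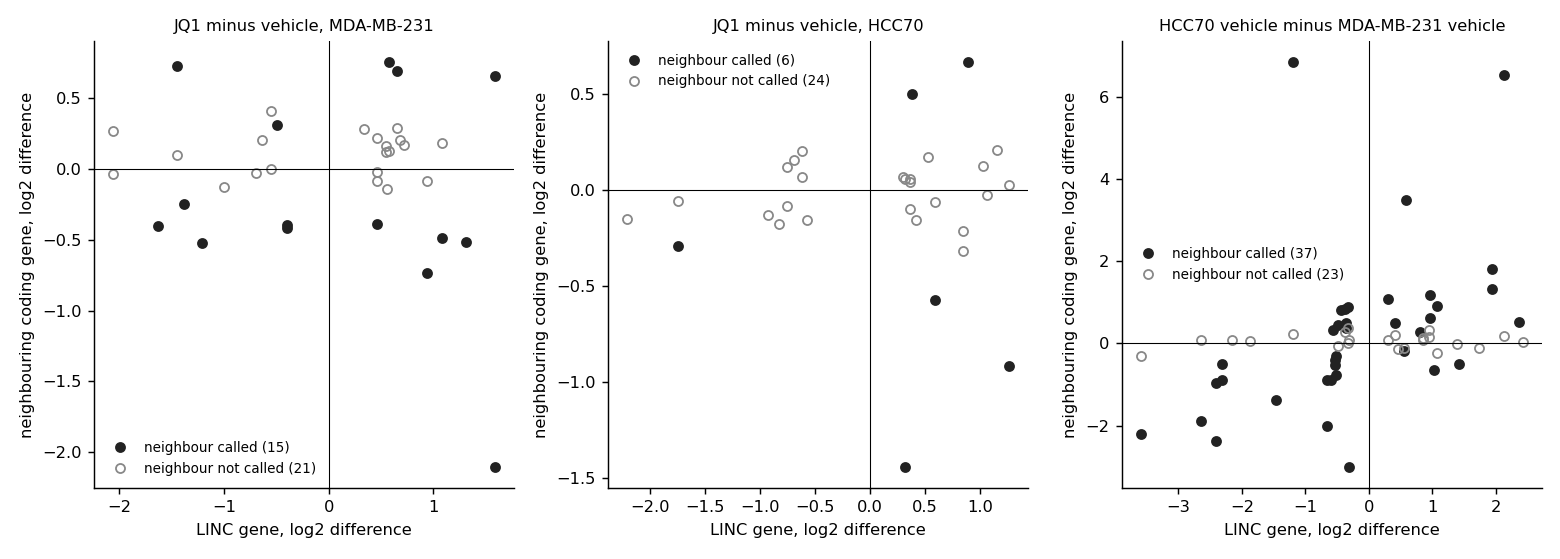
Log2 difference of each called LINC gene (horizontal axis) and of its measured protein-coding neighbours (vertical axis) for JQ1 minus vehicle in MDA-MB-231, the same in HCC70, and the vehicle-treated lines (HCC70 minus MDA-MB-231). Filled points are neighbours that were called, 15, 6 and 37 in the 3 panels, and open points those that were not.

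Other long noncoding RNAs, listed by name and without a LINC symbol, gave 29 measured genes of 53. In MDA-MB-231 5 rose and 2 fell, where 27.8% of all genes were called, with a median log2 change of 0.107, against 0.0173 over all genes. In HCC70 6 rose and 3 fell, where 21.7% of all genes were called, with a median of -0.103, against 0.00567. MALAT1, a nuclear transcript found at splicing speckles, rose by 0.63 ± 0.089 and 0.48 ± 0.089 in the lines, and RPPH1, the RNA of ribonuclease P, by 0.53 ± 0.084 and 0.33 ± 0.084. UCA1, which had the largest rise of these, differed by 3.37 ± 0.076 in MDA-MB-231 and 0.95 ± 0.076 in HCC70, more than any LINC gene in the first line and less than LINC01569 in the other. CRNDE rose by 0.43 ± 0.12 in MDA-MB-231 and fell by 0.55 ± 0.12 in HCC70, opposite directions, in which 0 LINC genes were called. In MDA-MB-231 KCNQ1OT1 rose by 0.82, and MIR17HG and SNHG17 fell by 0.81 and 0.62. In HCC70 MIR31HG and ZFAS1 rose by 0.84 and 0.60, and CASC15 and HCP5 fell by 0.65 and 0.44. The means of MIR17HG in MDA-MB-231 and of CASC15 in HCC70 lay below the lower quartile of genes under both treatments.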

How the data were processed

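The data were log2 signals of 53617 transcript clusters on 12 arrays, as deposited by the authors. Per the submitters' processing notes RMA, oligo and limma were used, with no version named. A genome build was not given in the sources used here. Columns that matched no sample numbered 0. The annotation gave 1 symbol to 16098 clusters, several to 0 and none to 37519, and the brightest cluster of each gene was kept, leaving 14884 genes with no filter on dim ones. Of the 53 other long noncoding RNAs listed, 24 were not analysed here, nor were LINC00152, LINC00657, LINC00662 and LINC00461.

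A model with 1 mean per group was fitted over all 12 arrays (R 4.3.3, limma 3.58.1, moderated by eBayes, two-sided tests, Benjamini-Hochberg adjustment over all genes), and the procedure was tested on simulated data. Folds that end below the lower quartile of genes (4.80) are read as lower bounds.

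The genes described and all lists were chosen with earlier results of these data known. Named genes were the largest called changes without overlap (up to 10 each way per line and between the lines, 6 each way for the difference), those called in both lines, the 6 brightest, the 3 on each side of the level rule and 16 fixed names, with up to 3 each way from the list of other long noncoding RNAs. Further called genes named in the text were chosen after their values were seen.

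Replicate numbers were checked as pairs by correlating array deviations from group means over genes. In MDA-MB-231 same-numbered arrays correlated at 0.155, 0.121 and 0.362 and others at -0.25 to 0.121. The 0.362 belonged to the arrays numbered 3, which stood apart in their quartiles, and an unlike-numbered pair also reached 0.121. These values do not settle whether the numbers mark pairs. The fit reported did not pair arrays, and the replicate block was tried as an alternative. In HCC70 the same-numbered correlations were -0.0588, 0.0147 and 0.0702, which gave no pairing. The alternatives were the replicate block, quantile normalization, median centring, array weights, each array left out, the compared groups alone, robust moderation with a variance trend, averaging a gene's clusters, testing all transcript clusters, testing genes above the median level and other level rules. Leaving out the arrays numbered 3 that stood apart, 3 in all, was chosen after seeing the data.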

Additional observations from a re-analysis of the deposited data

Results flagged for a closer look

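For 23 LINC genes the JQ1 change differed between the lines by the test of the difference itself (limma adjusted p under 0.05), where 15.0% of all genes tested were called. Differences are log2 changes in HCC70 minus those in MDA-MB-231. The positive ones were LINC03033 (2.29), LINC01085, LINC00941 and LINC01776 (1.45 each), LINC00622 (1.28), LINC00312 (1.03), LINC02894 (1.01), LINC00674 (0.64), LINC01123 (0.63), LINC03027 (0.59) and LINC01126 (0.44). The negative ones were LINC01235 (-1.78), LINC00842 (-1.63), LINC00862 (-1.16), LINC02649 (-1.15), LINC00942 (-0.90), LINC00174 (-0.85), LINC00920 (-0.84), LINC00639 (-0.82), LINC02398 (-0.76), LINC02447 (-0.72), LINC01341 (-0.66) and LINC00630 (-0.59). Without 1 array, in 7 to 9 of the 12 such fits, the calls of LINC00174, LINC00639, LINC01126, LINC01341, LINC02398 and LINC03027 were lost (limma adjusted p = 0.052 to 0.11).

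In several of these genes 1 line was too dim for a change to be seen. Both HCC70 means lay below the lower quartile of genes for LINC00941 (4.23 with JQ1 and 4.24 with vehicle) and LINC00842 (4.41 and 4.46), and both MDA-MB-231 means for LINC00312, LINC00622, LINC02894 and LINC02398. For LINC00639 the JQ1 means of both lines were below it, so its difference is a bound in neither direction. LINC02649, LINC01123, LINC01085, LINC00862, LINC00674 and LINC03033 were above it in all 4 groups.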

How the results depend on the processing

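Every named result that was called kept its direction under every alternative tried, while 44 values of 16 results that were not called changed sign, at sizes up to 0.238. Over all named results and alternatives, 2056 values kept their side of the threshold, 71 lost a call and 9 gained one, and without the 3 arrays numbered 3 that stood apart 98 of 105 kept theirs and 7 lost a call. The 9 were LINC00999 in HCC70 with a variance trend, array weights, genes above the median, quantile normalization or without HCC70 vehicle replicate 2 (adjusted p = 0.0016 to 0.042), and in MDA-MB-231 LINC00324 with array medians centred or without vehicle replicate 2, and LINC00665 and LINC00467 with quantile normalization. Calls that held under every alternative tested numbered 44 of 55 between the lines, 14 of 23 for the difference, 19 of 31 in MDA-MB-231 and 16 of 27 in HCC70. Restricting the fit to genes above the median level tested 53 LINC genes in place of 130, and it also changed which genes were called. Between the vehicle-treated lines 30 were called, of which 26 were also called as reported. The test of the difference called 11, and only 5 of these were called as reported. JQ1 calls numbered 18 in HCC70, 12 of them shared with the reported fit, and 14 in MDA-MB-231, 13 of them shared. With all 53617 transcript clusters in the adjustment 7496 were called in MDA-MB-231, 4984 in HCC70 and 15776 between the lines, and with array weights 5110 genes in HCC70 in place of 3229, for which the cause was not tested. Centring array medians gave 21 LINC genes higher and 15 lower in MDA-MB-231 (15 and 16 as reported) and 21 and 11 in HCC70 (15 and 12 as reported), with 2185 and 2091 of all genes in MDA-MB-231 (1607 and 2532 as reported) and 1925 and 1505 in HCC70 (1366 and 1863 as reported).

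Leaving out each array gave 24 to 32 LINC calls in MDA-MB-231 (3355 to 4236 over all genes), 48 to 57 between the lines (6383 to 7100), 17 to 23 for the difference (1748 to 2376) and 18 to 29 in HCC70 (2506 to 3359), the lowest without HCC70 vehicle replicate 1. With the replicate block the LINC calls were 33 in MDA-MB-231 (4210 over all genes), 57 between the lines (7241), 29 in HCC70 (3236) and 22 for the difference (2171). The block ended the HCC70 calls of LINC00467 and LINC00472 and the difference calls of LINC00639, LINC02398 and LINC03027, and the between-line call of LINC02447. Without the 3 arrays that stood apart LINC00173, LINC00174, LINC01002, LINC01128, LINC01341 and LINC02210 lost their calls in MDA-MB-231, LINC00205, LINC00467, LINC00623, LINC00852 and LINC02447 theirs in HCC70, and LINC00174, LINC00639, LINC01126, LINC01341 and LINC02398 theirs for the difference, and LINC01220 and LINC01252 theirs between the lines. The mean of a gene's clusters ended the calls of LINC00663 and LINC03027 in MDA-MB-231, of LINC00942 in HCC70 of LINC00987 between the lines and of LINC00312, LINC00674, LINC00942 and LINC03027 for the difference. A level rule of 5 gave 188 LINC genes and a rule of 6 gave 88, with 35 and 26 called in MDA-MB-231. Signals near the dim end of the arrays limit what can be said of the LINC genes that average below 6.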

Other observations

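JQ1 calls among the 328 LINC genes that stayed below the level rule numbered 15 in MDA-MB-231 (4.57%, against 27.8% of all genes tested). In HCC70 they numbered 6 (1.83%, against 21.7%). The difference of the JQ1 changes was called for 11 (3.35%, against 15.0%), and the vehicle-treated lines differed in 42 (12.8%, against 47.0%). The 328 genes were picked by low group means, so these shares are given as descriptions. No test was made of these shares against those of the 130 genes.

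Some LINC genes had clusters that disagreed. LINC01061, among the brightest at 10.94, differed by -0.04 with JQ1 in MDA-MB-231 in the cluster kept, while 2 dimmer clusters, at 7.30 and 8.17, rose by 0.56 and 0.42 there (limma adjusted p = 0.0018 and 0.0088). A dimmer cluster of LINC00265, at 7.47, fell by 0.40 in MDA-MB-231 and by 0.52 in HCC70 (limma adjusted p = 0.0047 in HCC70), where the cluster kept, at 7.55, differed by 0.24 and 0.03. For LINC00173 the cluster kept differed by 0.02 between the vehicle-treated lines, and 2 dimmer ones were lower in HCC70, with log2 differences of -1.27 and -2.10. In LINC00942 the cluster kept fell by 0.76 in HCC70, and the other differed by 0.12. Which probes of a gene read its main transcript was not tested.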
